A study of Mus musculus with 4 samples.

Results

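The nuclear respiratory chain genes are the subunits of mitochondrial complexes I, III, IV and V that are encoded on the chromosomes of the nucleus. Members were taken by symbol from the gene table of the libraries: every symbol that starts with Ndufa, Ndufb, Ndufc, Ndufs, Ndufv, Uqcr, Cox4i, Cox5, Cox6, Cox7, Cox8 or Atp5, leaving out pseudogene (-ps), assembly factor (Ndufaf) and antisense names. That gave 88 rows of 55414, with 87 symbols, since Atp5o stands in 2 rows. By complex they were 41 for complex I, 8 for complex III, 21 for complex IV and 18 for complex V (the ATP synthase). They were set against the 13 protein-coding genes of the mitochondrial genome (mt- genes).

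The libraries hold liver cells of 2-month-old mice of 2 genotypes, S/S and A/A. The labels do not spell out what S and A stand for, and name no allele, transgene or strain. Mice of each genotype were studied 3 h after an intraperitoneal dose of 500 ng TNF, an inflammatory cytokine, or at baseline with no challenge, so the 4 groups are S/S TNF, S/S baseline, A/A TNF and A/A baseline. Each group is 1 library made from the pooled cells of 2 mice, so no comparison has a replicate check and none was tested. Livers were perfused and digested, hepatocytes were depleted by slow spinning and dead cells by Ficoll, and a flow sort enriched macrophages and live cells, so the libraries do not hold the liver's cell types in their natural shares. Every interval below is an exact 95% interval for counting error only; it leaves out differences between barcodes, between mice and between preparations.

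The respiratory chain sits in the inner mitochondrial membrane. Complex I takes electrons from NADH, complex III passes them to cytochrome c, complex IV hands them to oxygen, and the ATP synthase uses the proton gradient that complexes I, III and IV build. Complex II feeds electrons from succinate and has nuclear subunits only. The other complexes are built from both genomes: the mitochondrial genome supplies a few hydrophobic core subunits, transcribed as long polycistronic RNAs inside the organelle, while the nuclear genes supply the rest as separate messenger RNAs made in the nucleus and translated in the cytosol. In macrophages, inflammatory activation is known for shifting the balance between oxidative phosphorylation and glycolysis. Kupffer cells are the resident macrophages of the liver.

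The libraries held 5848 barcodes and 54999906 UMIs (unique transcript molecules) in S/S TNF, 4983 and 30724027 in S/S baseline, 6531 and 53556431 in A/A TNF, and 3230 and 21088801 in A/A baseline. After a filter of at least 300 genes and at most 20% mt- UMIs, 5528, 4366, 6452 and 2830 barcodes were kept in that order. The TNF matrices held no barcode over 20% mt- UMIs before that filter, against 233 in S/S baseline and 336 in A/A baseline. Barcodes were sorted into classes by marker genes, and a class name ends in "-like" because it rests on those markers alone; between 71.4 and 83.6% of kept barcodes found a class. Any 2 libraries shared between 4 and 12 barcodes. Per the file headers the TNF matrices come from Cell Ranger 6.1.2 and the baseline matrices from 7.1.0, so program version and treatment cannot be told apart in any TNF comparison below. The S/S against A/A comparisons lie within 1 version. Each library enters 2 comparisons, 1 by treatment and 1 by genotype, so the comparisons are not independent of each other.

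Of the 88 rows, 79 had at least 200 UMIs over the 4 libraries and 9 had fewer. Cox8c and Ndufb11b had no UMI in any library, and a count of 0 allows up to 3 UMIs at this depth. The tissue-restricted forms Cox7b2 and Cox8b had 2 UMIs each, Ndufa11b 6, Ndufa4l2 17, Ndufs6b 23, Cox4i2 38 and Cox6c2 43. The 10 members with most UMIs were, in order, Atp5e, Cox4i1, Cox8a, Cox7c, Uqcrh, Atp5h, Cox6c, Cox6b1, Ndufb1 and Ndufa4, with 97892 UMIs for Atp5e and 53009 for Ndufa4. The 22 rows that matched the symbols but were left out added little: their UMIs were 1.41% of members and left-out rows together in S/S TNF, 1.53% in S/S baseline, 1.64% in A/A TNF and 1.59% in A/A baseline.

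In Kupffer-like barcodes, nuclear respiratory chain transcripts took a smaller share of UMIs after TNF than at baseline in both genotypes, while the mt- transcripts took a larger one. The nuclear members were 1.55% of UMIs in S/S TNF (interval 1.53 to 1.57, 314 barcodes) and 2.60% in S/S baseline (2.57 to 2.63, 459 barcodes). They were 1.29% in A/A TNF (1.27 to 1.31, 425 barcodes) and 1.87% in A/A baseline (1.84 to 1.89, 371 barcodes). Both genotypes were thus lower after TNF, and S/S was higher than A/A within either treatment. On the log2 scale the TNF over baseline ratio of the share was -0.75 in S/S and -0.53 in A/A, and the S/S over A/A ratio was 0.27 after TNF and 0.48 at baseline.

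The mt- coding genes went the other way in the same barcodes. They were 2.68% of UMIs in S/S TNF, against 1.49% in S/S baseline, and 3.21% in A/A TNF, against 1.03% in A/A baseline. The log2 TNF over baseline ratios of the mt- share were 0.85 in S/S and 1.64 in A/A. For each mt- UMI there were 0.578 nuclear UMIs in S/S TNF (0.568 to 0.589), against 1.75 in S/S baseline (1.71 to 1.78), and 0.402 in A/A TNF, against 1.82 in A/A baseline. Nuclear UMIs outnumbered mt- UMIs in both baseline libraries and were outnumbered in both TNF libraries. The ratio of nuclear to mt- UMIs was lower after TNF by a factor of 3.02 in S/S and 4.53 in A/A, and at baseline the genotypes lay close together (S/S over A/A log2 ratio -0.06). The middle barcode went in the same direction as the summed values. Its nuclear share was 1.75% in S/S TNF, against 2.44% in S/S baseline, and 1.30% in A/A TNF, against 1.86% in A/A baseline. Its S/S values thus lay closer together than the summed ones, while its A/A values were much like them.

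**Figure D1:**
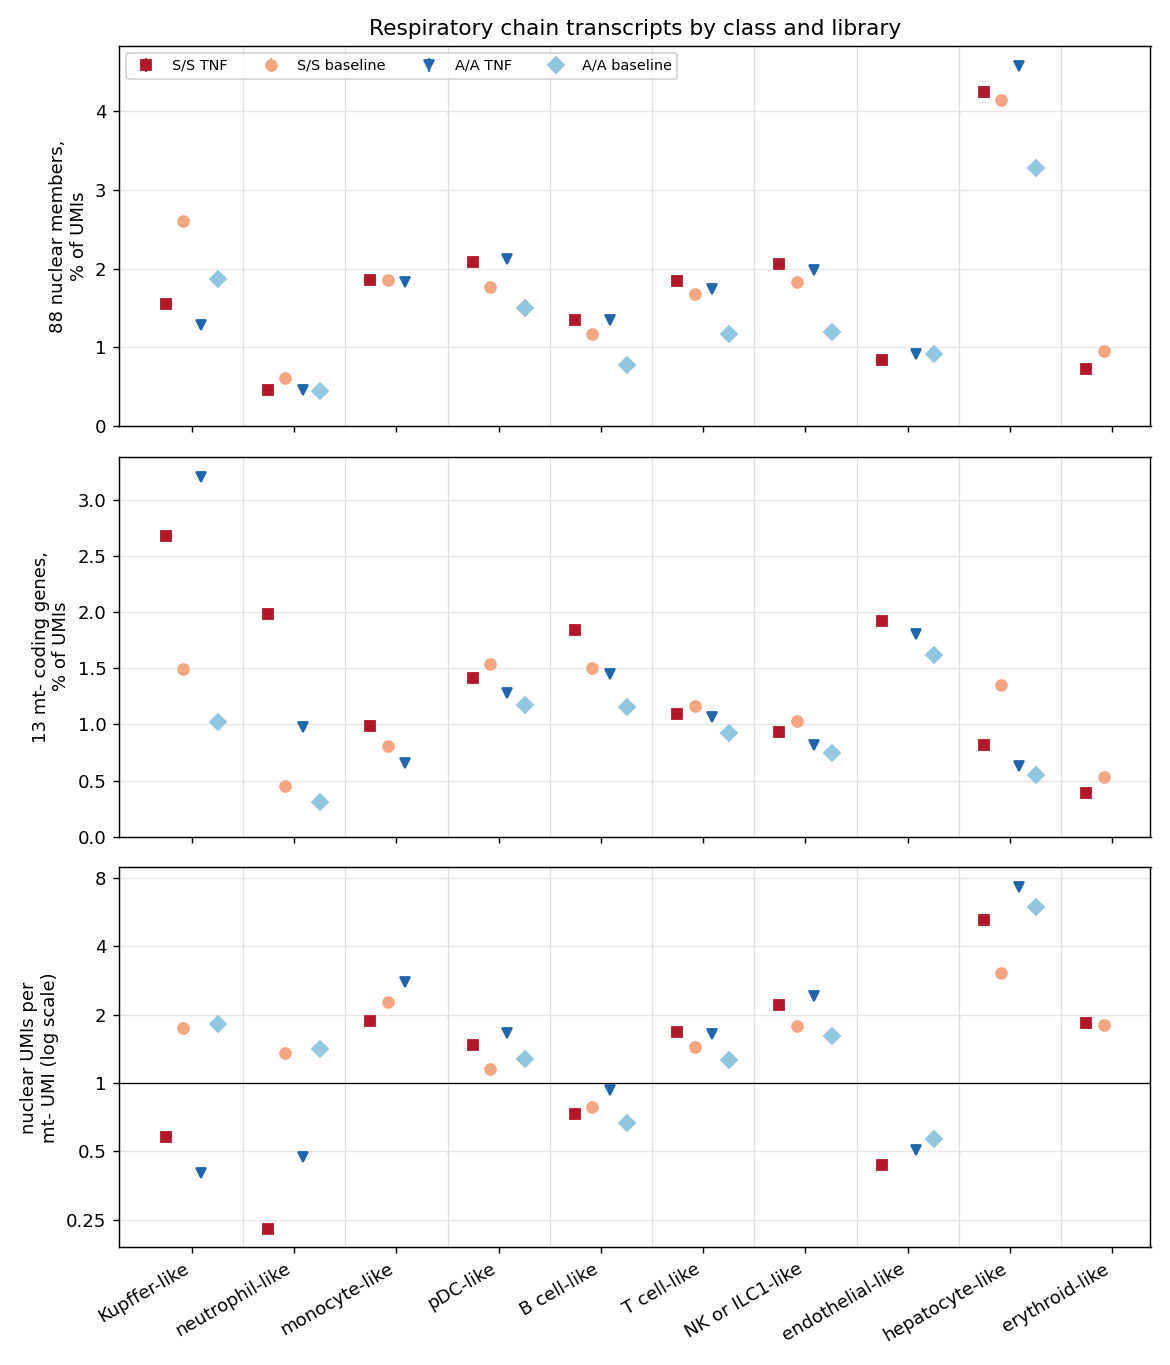
Share of UMIs on the 88 nuclear members (top), on the 13 mt- coding genes (middle) and nuclear UMIs per mt- UMI on a log axis (bottom), for each marker-gated class with at least 50 barcodes; 1 point is 1 library, bars are 95% counting intervals. In Kupffer-like and neutrophil-like barcodes the TNF points lie at 0.228 to 0.578 nuclear UMIs per mt- UMI and the baseline points at 1.35 to 1.82; the hepatocyte-like class has the largest nuclear share, 3.27 to 4.58%.

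Counted gene by gene, most nuclear members lay lower after TNF in Kupffer-like barcodes. Of 75 members with at least 20 UMIs in the S/S pair, 55 were past 1.5-fold lower in S/S TNF than in S/S baseline and 0 were past it higher. Over all 7226 genes of that pair, 30.4% were past 1.5-fold lower and 30.3% higher, so these libraries differ widely. In A/A, 33 of 74 members were past 1.5-fold lower after TNF and 2 higher, where 25.5% of all genes were lower and 30.3% higher. The median log2 ratio of the members was -0.81 in S/S and -0.51 in A/A, beside -0.02 and 0.08 for all genes compared. Complex I had the lowest summed ratios, with log2 -0.86 in S/S and -0.68 in A/A, and complex V the least low, with -0.64 in S/S and -0.41 in A/A.

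Of the complex I members with the lowest ratios, Ndufa9, an accessory subunit near the quinone site, had 27 UMIs in S/S TNF and 91 in S/S baseline, a log2 CPM ratio of -2.05 (-2.78 to -1.46), where CPM is UMIs per 1000000 UMIs of the class and 1 CPM is added to both sides. In A/A it had 43 UMIs after TNF and 46 at baseline, a log2 ratio of -0.50 (-1.15 to 0.12). Its A/A ratio thus lay near the A/A median of the members (-0.51), while its S/S ratio lay below the S/S median (-0.81). Ndufv1, the subunit that binds NADH, also had a lower ratio in S/S than in A/A, with 24 UMIs in S/S TNF, 62 in S/S baseline, 34 in A/A TNF and 23 in A/A baseline (log2 ratios of -1.67 in S/S and 0.14 in A/A). Ndufb10, in the membrane arm, was lower in both genotypes: 114 UMIs in S/S TNF, against 216 in S/S baseline, and 75 in A/A TNF, against 143 in A/A baseline (log2 -1.26 and -1.34). Ndufa13 and Ndufa6, further accessory subunits, had log2 ratios of -1.25 and -1.39 in S/S and of -1.31 and -1.09 in A/A. Ndufs1, the largest iron-sulfur subunit, was counted sparsely, with 42, 33, 30 and 14 UMIs in S/S TNF, S/S baseline, A/A TNF and A/A baseline, and its log2 ratios were 0.00 in S/S and 0.65 in A/A with an interval of -0.28 to 1.71. Ndufa1, which is needed to assemble the membrane arm, had the highest S/S ratio of the members with at least 100 UMIs (214 UMIs in S/S TNF, 157 in S/S baseline, log2 0.10, interval -0.20 to 0.41) and a ratio of -0.38 in A/A.

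In complex III, Uqcrh, the hinge protein beside cytochrome c1, had 436 UMIs in S/S TNF, 645 in S/S baseline, 313 in A/A TNF and 419 in A/A baseline, log2 ratios of -0.91 in S/S and -0.84 in A/A. Some members were nearer to 0: Uqcrfs1, the Rieske iron-sulfur protein, had log2 ratios of -0.13 in S/S and -0.19 in A/A, and Uqcrc1, a core protein, -0.14 and 0.61. Uqcrc2, the other core protein, had 51 UMIs in S/S TNF and 111 in S/S baseline (log2 -1.45), and 72 in each A/A library, where the larger TNF total makes the log2 ratio -0.41. Complex III thus held both low and near-level members.

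In complex IV, the 2 structural subunits Cox4i1 and Cox5a, which form part of its nuclear-encoded shell, were lower after TNF in both genotypes. Cox4i1 had 820 UMIs in S/S TNF, 962 in S/S baseline, 637 in A/A TNF and 590 in A/A baseline, and its CPM ratio was -0.57 on the log2 scale in S/S and -0.31 in A/A. Cox5a had 721, 1154, 692 and 779 UMIs in the same order, with log2 ratios of -1.02 and -0.59. Cox5a was the 1 member whose mean CPM was highest in the Kupffer-like class (806 CPM, against 703 CPM in hepatocyte-like barcodes). Cox8a, Cox7c, Cox6c, Cox6b1 and Ndufa4, a subunit once assigned to complex I, had log2 ratios between -0.41 and -0.91 in S/S and between -0.28 and -0.69 in A/A. Cox6a1 lay close to level, with 304, 279, 329 and 243 UMIs (log2 -0.22 and 0.02).

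Cox7a2l stood lowest of all members with at least 100 UMIs in A/A. Its protein, also called SCAF1, binds complexes III and IV together into supercomplexes. It had 170 UMIs in S/S TNF and 370 in S/S baseline, 87 in A/A TNF and 284 in A/A baseline, so the TNF counts do not reach the baseline counts in either genotype. The log2 CPM ratios were -1.46 in S/S (-1.74 to -1.20) and -2.11 in A/A (-2.49 to -1.77), and after TNF the S/S over A/A log2 ratio was 1.01. Its nearest relative Cox7a2, which takes the matching place in complex IV, had 362 UMIs in S/S TNF, 430 in S/S baseline, 351 in A/A TNF and 277 in A/A baseline, log2 ratios of -0.59 and -0.08. Cox7a2l was therefore 31.4% of the UMIs of Cox7a1, Cox7a2 and Cox7a2l in S/S TNF, against 46.1% in S/S baseline, and 19.7% in A/A TNF (16.1 to 23.8), against 50% in A/A baseline (45.8 to 54.2). Monocyte-like barcodes also had a smaller Cox7a2l share after TNF in S/S, 35.5% against 52.9%, and so did neutrophil-like barcodes, with 24.1% in S/S TNF, 35.6% in S/S baseline, 23.3% in A/A TNF and 36.7% in A/A baseline. In B cell-like and T cell-like barcodes the share moved less: 63.1, 63.4, 59.2 and 61.0% in B cell-like and 47.7, 51.8, 49.7 and 48.8% in T cell-like barcodes, in the order S/S TNF, S/S baseline, A/A TNF and A/A baseline. Endothelial-like barcodes had 424 Cox7a2l UMIs in A/A TNF and 116 in A/A baseline. The log2 CPM ratio there was -1.40 (-1.71 to -1.10), beside 0.05 for Cox7a2. In erythroid-like barcodes the S/S log2 ratios were -0.88 for Cox7a2l and -0.24 for Cox7a2.

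In complex V, the alpha subunit was near level in both genotypes, while the catalytic beta subunit was a little lower in S/S TNF and higher in A/A TNF. Atp5b had 364 UMIs in S/S TNF, 339 in S/S baseline, 389 in A/A TNF and 205 in A/A baseline, log2 ratios of -0.24 in S/S and 0.50 in A/A (0.26 to 0.76). Atp5a1 had 340, 277, 387 and 271 UMIs, log2 -0.05 and 0.09. Atp5e, the epsilon subunit of the rotor stalk, had 712, 812, 511 and 698 UMIs, log2 -0.53 and -0.87, and Atp5c1, the gamma subunit of the same stalk, -1.26 and -1.05. Atpif1, the inhibitor that binds the ATP synthase and is not a member by symbol, had 403 UMIs in S/S TNF, 739 in S/S baseline, 277 in A/A TNF and 534 in A/A baseline, log2 -1.22 and -1.36. The main Atp5o row (a stalk subunit) carried nearly all of the gene's UMIs (187 and 307 CPM in S/S TNF and S/S baseline, 165 and 230 CPM in A/A TNF and A/A baseline); over all kept barcodes the other row had 0 UMIs in both TNF libraries, 293 in S/S baseline and 249 in A/A baseline.

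Ndufs5, a complex I accessory subunit, needs a separate word because its transcript shares a stretch of 286 bases at 98% identity or more with the gene row Ndufs5-ps, which the rule leaves out. In Kupffer-like barcodes Ndufs5 had 66 UMIs in S/S TNF, 207 in S/S baseline, 68 in A/A TNF and 143 in A/A baseline, log2 ratios of -1.97 and -1.47, while Ndufs5-ps had 25, 3, 41 and 5. With both rows summed the log2 ratios were -1.54 and -0.85. Over all kept barcodes Ndufs5-ps had 1273 UMIs in S/S TNF, 74 in S/S baseline, 1792 in A/A TNF and 58 in A/A baseline, and in T cell-like barcodes the A/A log2 ratio of Ndufs5 was -0.25 alone and 0.41 with both rows. The level of Ndufs5 in these libraries is therefore uncertain. Near-identical stretches of at least 90 bases in another gene were found for 16 of the 83 member rows with a transcript to compare, among them Ndufs3, Ndufb6, Ndufb11, Uqcrc2, Cox5a, Cox7c, Atp5g1, Atp5h and both Atp5o rows, and for 6 of the 13 mt- genes, among them mt-Co1 and mt-Nd3, so their counts may be split between rows. Without the members that have such a copy the log2 ratio of the nuclear share was -0.71 in S/S.

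**Figure D2:**
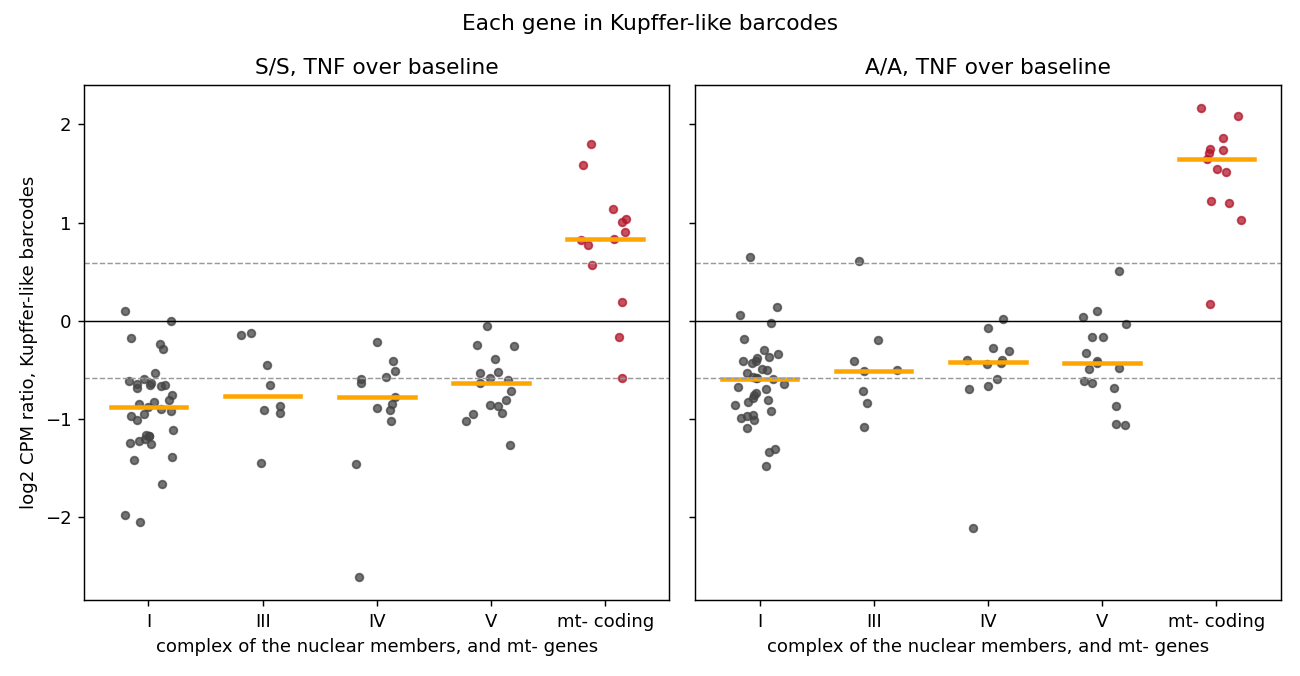
Each point is 1 gene with at least 20 UMIs in the pair; the vertical axis is the log2 CPM ratio of TNF over baseline in Kupffer-like barcodes, S/S left and A/A right, by complex of the nuclear members (grey) and for the mt- coding genes (red). Orange bars are medians and dashed lines mark 1.5-fold; the medians of all nuclear members are -0.81 in S/S and -0.51 in A/A, those of the mt- genes 0.84 and 1.65.

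Among the mt- genes, 9 of 13 were past 1.5-fold higher after TNF in S/S and 1 lower, and 12 of 13 were higher in A/A and 0 lower. mt-Cytb, the mitochondrial subunit of complex III, had 9222 UMIs in S/S TNF, 4260 in S/S baseline, 11256 in A/A TNF and 2502 in A/A baseline, log2 CPM ratios of 0.77 and 1.75. mt-Nd4 and mt-Nd5, proton-pumping subunits of complex I, had log2 ratios of 1.01 and 1.59 in S/S and of 1.71 and 1.86 in A/A. mt-Co1, which holds the oxygen-reducing site of complex IV, had 2187, 839, 2460 and 628 UMIs, log2 1.04 and 1.55. In S/S, 4 genes were not past the fold higher, and in A/A 1 was not. They were mt-Nd6, the 1 coding gene read from the other strand of the mitochondrial genome, with 91, 108, 119 and 79 UMIs (log2 -0.59 and 0.17), and, in S/S alone, mt-Nd3 (829 UMIs after TNF, 733 at baseline, log2 -0.17; 1.03 in A/A), mt-Co2 (45 and 31 UMIs, log2 0.19; 1.65 in A/A) and mt-Co3 (142 and 75 UMIs, log2 0.57; 2.16 in A/A). The mitochondrial ribosomal RNAs mt-Rnr1 and mt-Rnr2 had smaller ratios, log2 0.24 and 0.23 in S/S and 1.05 and 0.89 in A/A.

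The other gene lists of the pathway were counted the same way in Kupffer-like barcodes, against the same background percentages. Of the complex II genes, 2 of 4 were past 1.5-fold lower and 0 higher in each genotype: Sdhd, a membrane anchor, had log2 ratios of -1.20 in S/S and -1.13 in A/A, and Sdhb, the iron-sulfur subunit, -0.97 and -1.07. Neither Cyc1 (cytochrome c1) nor Cycs (cytochrome c) was past the fold in either genotype; Cycs had log2 ratios of -0.52 and 0.24. Assembly factors of complexes III to V had 9 of 17 lower and 1 higher in S/S and 11 of 20 lower and 2 higher in A/A, among them Uqcc2, needed for complex III assembly (log2 -1.16 and -0.94), and Cox20, a chaperone of a complex IV subunit (-1.59 in S/S). Complex I assembly factors had 3 of 7 lower and 0 higher in S/S, and 3 of 5 lower and 1 higher in A/A. Mitochondrial ribosomal proteins had 47 of 77 lower and 1 higher in S/S and 29 of 76 lower and 4 higher in A/A. Cytosolic ribosomal proteins had 75 of 87 lower and 2 higher in S/S and 67 of 87 lower and 2 higher in A/A. By contrast, the TCA cycle genes split, with 4 of 15 lower and 3 higher in S/S and 2 of 15 lower and 3 higher in A/A, and Ogdh, the core of the 2-oxoglutarate dehydrogenase, had log2 ratios of 0.70 and 0.65. Genes of mitochondrial transcription and biogenesis had 3 of 10 lower and 4 higher in S/S and 1 of 9 lower and 5 higher in A/A. The ADP, ATP, phosphate and porin carriers had 2 of 7 lower and 0 higher in S/S and 0 of 7 lower and 1 higher in A/A; that gene was Vdac2, an outer membrane porin (log2 1.01).

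Relative to cytosolic ribosomal protein UMIs in place of all UMIs, the direction turned: the nuclear members then had a log2 TNF over baseline ratio of 0.24 in S/S and 0.31 in A/A. Ribosomal protein genes were 9.59% of Kupffer-like UMIs in S/S TNF, 19.0% in S/S baseline, 6.59% in A/A TNF and 11.9% in A/A baseline, so both sets of short housekeeping messages took a smaller share after TNF, the ribosomal set more so. The 18S rRNA row Rn18s-rs5 took 17.7, 9.70, 18.7 and 22.4% of Kupffer-like UMIs in the same order. With mt- and rRNA genes taken out of the total, the log2 ratio of the nuclear share was -0.57 in S/S.

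RNA of other cells in Kupffer-like barcodes differed between the libraries as well, with some marker lists higher after TNF and others lower. All 12 Kupffer markers had UMIs in each library, with summed levels of 11142 CPM in S/S TNF, 12249.5 in S/S baseline, 14669 in A/A TNF and 15402 in A/A baseline. A UMI of Clec4f, Timd4 or Vsig4 was found in 192 Kupffer-like barcodes of S/S TNF, 255 of S/S baseline, 393 of A/A TNF and 343 of A/A baseline. Against the class totals given above, this was a smaller part of the class in S/S than in A/A. The neutrophil marker list summed to 448 CPM in S/S TNF, 195 in S/S baseline, 903 in A/A TNF and 123 in A/A baseline, with 10, 11, 12 and 9 of 12 markers seen and Ly6g at 0 in all but A/A TNF. Hepatocyte markers summed to 1599, 724, 1763 and 886 CPM with 12, 11, 12 and 12 of 12 seen. Monocyte markers summed to 753, 272, 1019 and 267 CPM, with 12, 12, 12 and 10 of 12 seen, and mature dendritic cell markers to 291, 96.5, 583 and 163 CPM, with 10, 6, 9 and 9 of 10 seen, so both were higher in each TNF library. Endothelial markers summed to 315, 159, 663 and 430 CPM, with 12, 11, 12 and 12 of 12 seen. Erythroid markers summed to 2659.5, 6449, 185 and 25.9 CPM, with 10, 11, 8 and 4 of 11 seen, so they were mostly in the S/S libraries. They were lower after TNF in S/S and higher in A/A. B cell (52.6, 154, 37.9 and 132 CPM) and NK or ILC1 markers (1454, 2121, 1398 and 2267 CPM) were lower in both TNF libraries. So were plasmacytoid dendritic cell (64.3, 122, 131 and 141 CPM) and T cell markers (3.34, 81.6, 29.0 and 34.5 CPM). Of the NK or ILC1 list, 5, 9, 6 and 9 of 12 markers were seen, and Ncr1 and Eomes were at 0 in S/S TNF. The same list summed to 3084 CPM in neutrophil-like and 4266 CPM in pDC-like barcodes of S/S TNF. Its sum is therefore not a measure of NK or ILC1 RNA alone. Stellate or fibroblast markers were higher in both (90.1, 50.9, 142 and 86.3 CPM). Plasma cell, conventional dendritic cell and cholangiocyte lists went opposite ways by genotype. In barcodes with no UMI of an erythroid marker (27 in S/S TNF, 29 in S/S baseline) the S/S log2 ratio of the nuclear share was -0.15, and in those with neither a neutrophil nor an erythroid marker (11 and 21) it was 0.01. The A/A ratio in barcodes with neither was -0.42 (62 in A/A TNF and 268 in A/A baseline). In barcodes with no hepatocyte marker it was -0.32 in S/S (42 and 152) and -0.45 in A/A (68 and 95), and the log2 ratio of nuclear to mt- UMIs was -0.03 in S/S and -1.44 in A/A. The S/S values in these small sets are thus far from those of all Kupffer-like barcodes, and the part of the other marker lists in the result was not tested.

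Depth moved with the share as well, so barcodes of like depth were set side by side. Among Kupffer-like barcodes with 3000 or more UMIs, the nuclear share was 1.45% in S/S TNF, 2.69% in S/S baseline, 1.20% in A/A TNF and 1.76% in A/A baseline. Among those with 1500 to under 3000 UMIs it was 1.81, 2.59, 1.40 and 1.89%, and under 1500 UMIs 1.91, 2.48, 1.55 and 2.25%. In each of the 3 depth ranges both TNF libraries lay below their baseline libraries and S/S lay above A/A in the same treatment. The same held in barcodes without a Malat1 UMI, a nuclear RNA whose level was 7283 CPM in S/S TNF, 1300 in S/S baseline, 2140 in A/A TNF and 771 in A/A baseline: there the nuclear share was 1.73% in S/S TNF, 2.62% in S/S baseline, 1.34% in A/A TNF and 1.88% in A/A baseline. With Kupffer-like barcodes thinned to 1000 UMIs, and shallower ones left out (268 remained in S/S TNF, 341 in S/S baseline, 353 in A/A TNF and 329 in A/A baseline), the log2 ratios were -0.53 in S/S and -0.47 in A/A, and 35 members were past 1.5-fold lower in S/S in place of 55; thinning also leaves fewer UMIs and fewer barcodes to count. The share of all genes past the fold after thinning is not given, so 35 has no background beside it.

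**Figure D3:**
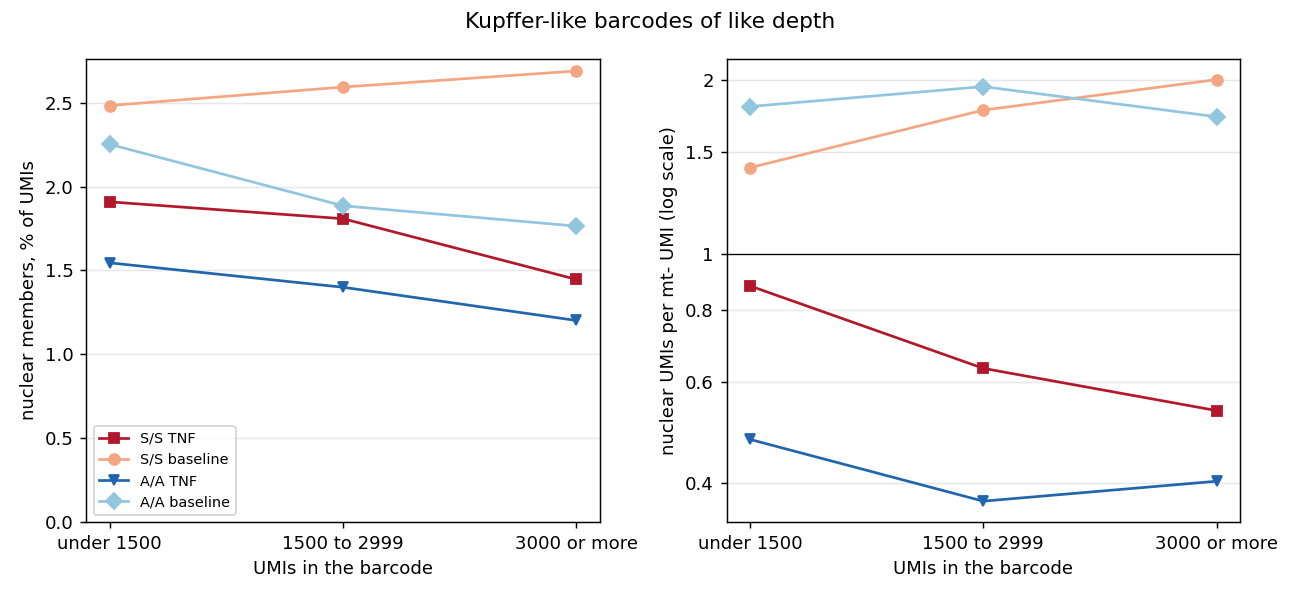
Nuclear share of UMIs (left) and nuclear UMIs per mt- UMI on a log axis (right) in Kupffer-like barcodes split by their total UMIs; 1 line is 1 library and each point sums the barcodes of 1 depth range, from 58 to 245 barcodes. The TNF lines lie below the baseline lines of the same genotype at each depth, and below 1 nuclear UMI per mt- UMI.

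Between genotypes, the nuclear members leaned higher in S/S. At baseline, 33 of 75 were past 1.5-fold higher in S/S relative to A/A and 0 lower, where 25.3% of all genes were higher and 21.5% lower, and the median log2 ratio was 0.54 for members and 0.08 for all genes. After TNF, 11 of 74 were higher in S/S and 1 lower, where 15.6% of all genes were higher and 16.3% lower, so the count of higher members was near the background; the median was 0.28 for members and -0.03 for all genes. At baseline the largest ratios among members with at least 100 UMIs were those of Ndufs3, a core complex I subunit (99 UMIs in S/S, 36 in A/A, log2 1.41), Atp5g1, a c-ring subunit (377 and 172, log2 1.10), and Ndufa11, in the membrane arm (165 and 80, log2 1.01), all 3 higher in S/S. The lowest were Ndufa1 (157 and 178, log2 -0.20), Ndufb4 (77 and 86, log2 -0.18) and Atp5a1 (277 and 271, log2 0.01), whose intervals all span 0. After TNF, under the same minimum, Cox7a2l (log2 1.01), Ndufb11 (144 in S/S, 81 in A/A, log2 0.87) and Ndufv3 (166 and 100, log2 0.77) were highest, and Uqcrc2 (51 and 72, log2 -0.44), Atp5a1 (340 and 387, log2 -0.14) and Ndufa4 (386 and 418, log2 -0.07) lowest. Relative to ribosomal protein UMIs the S/S over A/A log2 ratio was below 0 in both treatments, -0.27 after TNF and -0.20 at baseline, and without mt- and rRNA genes 15 members were past the fold higher at baseline in place of 33. The share of all genes past the fold under that total is not given, so 15 has no background beside it. The erythroid markers given above differ between the genotypes too: in barcodes with none, the baseline log2 ratio of the share was 0.25. Barcodes with Clec4f, Timd4 or Vsig4 also made up a smaller part of the class in S/S. In them the nuclear share was 1.42% in S/S TNF, 1.27% in A/A TNF, 2.60% in S/S baseline and 1.87% in A/A baseline.

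Neutrophil-like barcodes had the smallest nuclear share of any class with at least 50 barcodes in each library. It was 0.452% in S/S TNF (1051 barcodes), 0.605% in S/S baseline (146), 0.458% in A/A TNF (1343) and 0.440% in A/A baseline (119). The mt- share was 1.98, 0.449, 0.974 and 0.312% in the same order, so TNF libraries lay above baseline by a log2 ratio of 2.14 in S/S and 1.64 in A/A. The neutrophil markers themselves, all 12 seen in each library, summed to 153433 CPM in S/S TNF, 101476 in S/S baseline, 158491 in A/A TNF and 44762 in A/A baseline. Kupffer markers summed to 169, 614, 172 and 864 CPM in these barcodes, with 12, 9, 12 and 9 of 12 seen, and hepatocyte markers to 993, 249.6, 568 and 183 CPM, with 12, 12, 12 and 11 of 12 seen. The neutrophil and hepatocyte lists were thus higher and the Kupffer list lower in both TNF libraries. Erythroid (1575, 718, 50.5 and 11.9 CPM), NK or ILC1, endothelial and stellate or fibroblast markers were also higher in both. The pDC, conventional dendritic cell, B cell and T cell markers were lower in both. Monocyte, mature dendritic cell, plasma cell and cholangiocyte markers were lower after TNF in S/S and higher in A/A. The part of any of these lists in these shares was not tested. Nuclear UMIs per mt- UMI were 0.228 in S/S TNF, against 1.35 in S/S baseline, and 0.470 in A/A TNF, against 1.41 in A/A baseline. In S/S, 40 of 74 members were past 1.5-fold lower and 2 higher, where 54.6% of all genes were lower and 16.9% higher; in A/A, 12 of 74 were lower and 14 higher, where 42.1% were lower and 25% higher. Members thus lay lower no more often than genes at large, whose median log2 ratio was -0.72 in S/S and -0.32 in A/A, against -0.61 and -0.08 for the members. Uqcrfs1 had the highest S/S ratio (154 UMIs in S/S TNF, 8 in S/S baseline, log2 1.03) and a ratio of 1.57 in A/A (132 and 3). Cox5b, a zinc-binding complex IV subunit, had 917 UMIs in S/S TNF, 75 in S/S baseline, 1179 in A/A TNF and 47 in A/A baseline, log2 0.44 and 0.93, while Ndufa8, an accessory complex I subunit, had 94, 26, 102 and 15, log2 -1.27 and -0.90. mt-Cytb had 35358 UMIs in S/S TNF, 789 in S/S baseline, 22116 in A/A TNF and 473 in A/A baseline, log2 2.31 and 1.84.

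In the lymphoid and plasmacytoid dendritic cell-like (pDC-like) classes the nuclear share was higher after TNF in both genotypes, more so in A/A. In T cell-like barcodes it was 1.84% in S/S TNF, 1.67% in S/S baseline, 1.74% in A/A TNF and 1.17% in A/A baseline, log2 ratios of 0.14 in S/S and 0.58 in A/A. The A/A baseline library lay lowest and the other libraries close together. In these barcodes neutrophil markers summed to 203 CPM in S/S TNF, 63.5 in S/S baseline, 322 in A/A TNF and 63.3 in A/A baseline, with 11, 10, 11 and 11 of 12 seen. The pDC markers summed to 75.3, 190.1, 88.6 and 194 CPM, with 9, 10, 10 and 10 of 10 seen, and erythroid markers to 468, 1193, 20.7 and 122 CPM, with 10, 11, 8 and 7 of 11 seen. Neutrophil markers were higher and the other 2 lists lower in both TNF libraries. Mature dendritic cell, plasma cell and stellate or fibroblast markers were also higher in both, and Kupffer, B cell and endothelial markers lower. NK or ILC1 (1934, 2152, 884 and 640 CPM), monocyte, conventional dendritic cell and cholangiocyte markers were lower after TNF in S/S and higher in A/A. Hepatocyte markers went the reverse way. The part of any of these lists in the share was not tested. The log2 ratios in S/S and A/A were 0.20 and 0.81 in B cell-like, 0.17 and 0.73 in NK or ILC1-like and 0.24 and 0.51 in pDC-like barcodes. In T cell-like barcodes 1 of 74 members was past 1.5-fold higher in S/S and 1 lower, where 8.99% of genes were higher and 32.7% lower; in A/A, 38 of 75 were higher and 0 lower, where 18.5% were higher and 26.7% lower. Ndufs8, a complex I core subunit, had the highest S/S ratio there (227 UMIs in S/S TNF, 372 in S/S baseline, log2 0.72; 1.11 in A/A), and Ndufa12, an accessory subunit, the highest A/A ratio (899 UMIs in A/A TNF, 202 in A/A baseline, log2 1.33; 0.57 in S/S). Cytosolic ribosomal proteins leaned the same way in A/A, with 62 of 91 higher and 4 lower, and mitochondrial ribosomal proteins had 35 of 78 higher and 1 lower.

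Genes with long introns moved with treatment in these classes. In T cell-like barcodes the genes whose introns add up to more than 100 kb had a median log2 TNF over baseline ratio of -1.49 in S/S and -1.59 in A/A, and in neutrophil-like barcodes -2.24 and -2.09. In Kupffer-like barcodes the same genes were near level, with -0.10 and -0.09. No member has introns of that length, and the median over members was 4566 bases. In Kupffer-like barcodes members with under 5 kb of introns had a median log2 ratio of -0.71 in S/S and -0.48 in A/A, and those with more had -0.91 and -0.58. All genes compared had -0.40 and -0.13 with under 5 kb, and 0.08 and 0.12 with more. Genes with under 5 kb were thus lower after TNF at large, though less so than the members. In lymphoid classes the A/A medians under 5 kb were 0.64 for members and 0.43 for all genes in T cell-like barcodes. They were 0.86 and 0.54 in B cell-like and 0.84 and 0.70 in NK or ILC1-like barcodes. Whether introns were counted is not stated in the sources used here, and the part of intron counting or of the program version in the higher lymphoid shares was not tested.

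Hepatocyte-like barcodes had the largest nuclear share, 4.24% in S/S TNF, 4.14% in S/S baseline, 4.58% in A/A TNF and 3.27% in A/A baseline, and 5.19, 3.05, 7.28 and 5.97 nuclear UMIs per mt- UMI. Hepatocytes were depleted before sorting, and these barcodes had a median of 1068, 1125, 1582 and 1506 UMIs. By mean CPM over libraries with at least 50 barcodes of the class, 74 of the 79 members with at least 200 UMIs were highest in the hepatocyte-like class. Of the same members, 52 were lowest in the neutrophil-like and 19 in the erythroid-like class. The same counts over all genes are not given, so these have no background and are not read as a result about the members. The erythroid-like means rest on S/S alone, where erythroid markers took 442842 CPM in S/S TNF and 470394 CPM in S/S baseline. The monocyte-like means lack A/A baseline and the endothelial-like means S/S baseline. Uqcrq, the small subunit that holds cytochrome b in complex III, showed the widest gap between highest and median class of the broadly expressed members. It had 1691 CPM in hepatocyte-like barcodes against a median class of 237 CPM. Across all 7 classes with 50 barcodes in both baseline libraries, the baseline nuclear share of S/S exceeded that of A/A. The log2 ratio ran from 0.24 in pDC-like to 0.62 in NK or ILC1-like barcodes. In the same 7 classes the mt- and ribosomal protein shares were also higher in S/S baseline, so the direction was not particular to the members. For ribosomal proteins the log2 ratio ran from 0.36 in pDC-like to 1.05 in hepatocyte-like barcodes. Library-wide, the 18S rRNA row took 5.978% of UMIs in S/S baseline and 16.965% in A/A baseline. In Kupffer-like barcodes the S/S over A/A baseline ratio was lower with mt- and rRNA genes taken out of the total, as given below. For the other classes no such value was computed, and the part of the 18S row in these shares was not tested. After TNF the nuclear share was higher in S/S in 4 of 9 classes and lower in 5. In endothelial-like barcodes the A/A log2 TNF ratio was -0.01, in monocyte-like barcodes the S/S ratio was 0.00, and in erythroid-like barcodes the S/S ratio was -0.42.

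A pair of complex IV subunits stood apart by class. Cox6a2, the form of subunit 6a known from heart and skeletal muscle, was the more abundant form in pDC-like barcodes and in no other class. It had 1252 of the 1462 UMIs of Cox6a1 and Cox6a2 there in S/S TNF, 2031 of 2285 in S/S baseline, 1186 of 1442 in A/A TNF and 1838 of 2112 in A/A baseline. These are 85.6% (83.7 to 87.4), 88.9% (87.5 to 90.1), 82.2% (80.2 to 84.2) and 87.0% (85.5 to 88.4), so in each genotype the share was a little lower after TNF than at baseline. Its level there was similar in the 4 libraries, with 1459 CPM in S/S TNF, 1418 in S/S baseline, 1349 in A/A TNF and 1286 in A/A baseline. Over all kept barcodes Cox6a2 had 3537 UMIs in S/S TNF, 3339 in S/S baseline, 5233 in A/A TNF and 3810 in A/A baseline, so a large part of its UMIs lay outside the pDC-like barcodes, including barcodes that found no class. Among the other classes the largest share was 6.14% (3.97 to 9.0), in NK or ILC1-like barcodes of A/A TNF, and Kupffer-like barcodes had 0.33, 1.76, 2.37 and 3.95%. Cox6b2, known as the testis form of subunit 6b, was 59.7% of Cox6b1 and Cox6b2 UMIs in erythroid-like barcodes of S/S TNF (57.3 to 62.0, 1040 UMIs) and 56.2% in S/S baseline (52.3 to 60.0, 377 UMIs); the A/A libraries had too few such barcodes, 38 and 14. In Kupffer-like barcodes Cox6b2 had 4 UMIs in S/S TNF, 24 in S/S baseline, 2 in A/A TNF and 2 in A/A baseline, in the order of the erythroid marker sums in the S/S libraries. Shares of UMIs are compared here without scaling for length, since the 3' chemistry reads 1 end of each transcript.

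**Figure D4:**
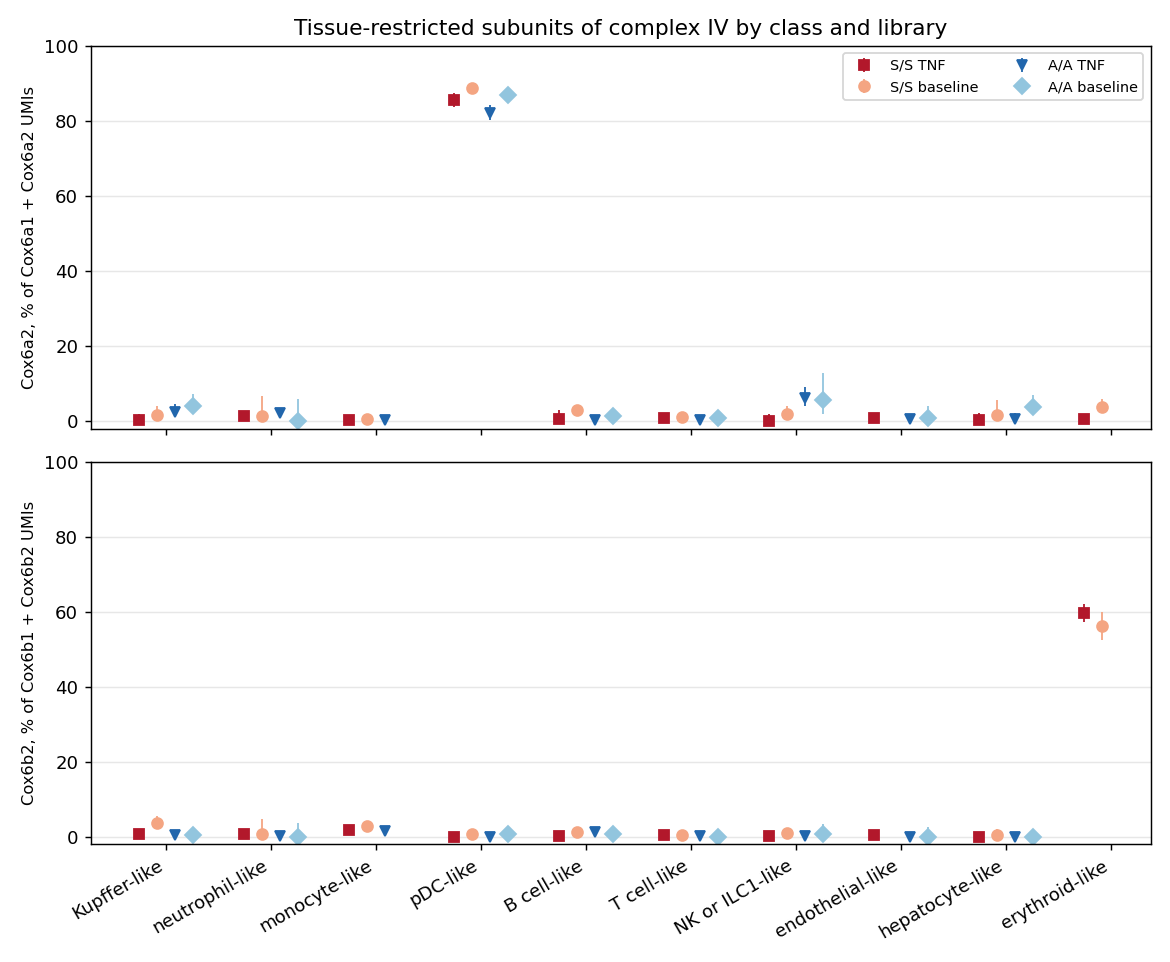
Cox6a2 as a percent of Cox6a1 and Cox6a2 UMIs (top) and Cox6b2 as a percent of Cox6b1 and Cox6b2 UMIs (bottom) by class; 1 point is 1 library and bars are exact 95% counting intervals. Cox6a2 lies between 82.2 and 88.9% in pDC-like barcodes and at 6.14% or less in all other classes, and Cox6b2 at 56.2 and 59.7% in erythroid-like barcodes.

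Start regions of some of the paired forms described above are shown so that their letters can be read (RefSeq, build GRCm38.p6, 250 bases before to 50 after the gene start, on the gene's strand, 5' to 3'). Of the 87 symbols, 67 have an entry, and Cox6a2 has none. Capitals mark matches, on either strand, to the letters of the NRF1 motif (GCATGCGC or GCGCATGC), the ETS motif (CCGGAAG or CTTCCGG) or the YY1 motif (AAGATGGC or GCCATCTT); a match is a description of letters, not of binding. Cox6a1 lies at chr5:115348909-115349208, Cox6b1 at chr7:30626065-30626364, Cox6b2 at chr7:4753045-4753344 and Cox7a2l at chr17:83514284-83514583, all on the minus strand.
Cox6a1: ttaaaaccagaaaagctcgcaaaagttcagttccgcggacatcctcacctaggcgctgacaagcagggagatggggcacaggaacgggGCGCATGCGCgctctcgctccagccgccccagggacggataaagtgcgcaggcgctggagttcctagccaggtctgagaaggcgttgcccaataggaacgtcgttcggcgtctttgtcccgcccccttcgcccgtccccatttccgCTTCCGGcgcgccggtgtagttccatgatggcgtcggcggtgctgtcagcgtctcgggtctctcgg
Cox6b1: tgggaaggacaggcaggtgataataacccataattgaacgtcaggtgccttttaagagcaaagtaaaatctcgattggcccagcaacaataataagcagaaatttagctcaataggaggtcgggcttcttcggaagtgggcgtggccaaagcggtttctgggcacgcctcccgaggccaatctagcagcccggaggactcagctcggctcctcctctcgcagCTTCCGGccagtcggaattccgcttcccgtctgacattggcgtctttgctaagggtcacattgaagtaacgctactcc
Cox6b2: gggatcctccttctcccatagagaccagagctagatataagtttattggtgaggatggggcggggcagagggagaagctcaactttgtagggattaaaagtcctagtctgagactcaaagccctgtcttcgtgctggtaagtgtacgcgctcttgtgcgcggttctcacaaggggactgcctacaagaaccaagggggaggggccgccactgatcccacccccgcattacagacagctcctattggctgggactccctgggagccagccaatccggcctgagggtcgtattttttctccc
Cox7a2l: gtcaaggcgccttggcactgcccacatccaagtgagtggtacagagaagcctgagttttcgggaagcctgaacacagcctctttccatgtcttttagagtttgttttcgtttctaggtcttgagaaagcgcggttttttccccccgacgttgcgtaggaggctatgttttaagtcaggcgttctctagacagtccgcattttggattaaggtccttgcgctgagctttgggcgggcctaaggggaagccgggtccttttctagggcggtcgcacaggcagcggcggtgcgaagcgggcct
Cox6a1 holds 2 NRF1 matches, which overlap each other as GCGCATGCGC, and 1 ETS match, and Cox6b1 holds 1 ETS match. The windows of Cox6b2 and Cox7a2l hold no match to these letters, and neither does that of Cox7a2, which is not shown. Over the 67 member promoters, the NRF1 letters stand in 9 (13.4%), against 758 of 27025 promoters of all genes (2.8%), the ETS letters in 14 (20.9%), against 2465 (9.12%), and the YY1 letters in 9 (13.4%), against 778 (2.88%).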

How the data were processed

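Cells from 4 libraries, 1 per group, were measured by 10x Genomics 3' single-cell RNA sequencing. The deposited values are whole-number UMI counts per gene and barcode, made with Cell Ranger, which the file headers give as 6.1.2 for the TNF and 7.1.0 for the baseline matrices; the submitters' processing notes name the build mm39. Whether introns were counted is not stated in the sources used here. The TNF matrices as deposited held no barcode with fewer than 250 genes or over 20% mt- counts.

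A barcode was kept if it had 300 genes or more and no more than 20% of its counts on mt- genes. A barcode entered a class when it had UMIs of at least 3 of that class's markers and at least 2 times as many as of the next class; hepatocyte markers counted only at 1% or more and erythroid markers only at 5% or more of a barcode's UMIs. No doublet caller was run. The ratio rule drops only barcodes with many markers of another class, so mixed barcodes can enter a class. Of the Kupffer-like barcodes of S/S TNF, only 82 had no neutrophil marker, 42 no hepatocyte marker and 27 no erythroid marker. Counts were summed per library and class, and shares, CPM ratios (pseudocount 1 CPM, at least 20 UMIs in the pair) and exact 95% intervals for counting error were computed in Python 3.11.15 with numpy 2.4.6, scipy 1.17.1 and pandas 2.3.3; figures used matplotlib 3.10.9. The intervals of single genes were computed without the pseudocount that their ratios carry. The calculation was tested on simulated data. A gene counts as past the fold at 1.5-fold or more. With 1 library of 2 pooled mice per group, no test across samples exists and no p-value is given. Intron lengths came from GENCODE M21 as a property of the gene, and near-identical transcripts were found with blastn (98% identity over at least 90 of the last 400 bases).

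The members, gene lists and markers were chosen with earlier results of these data known, and the gate thresholds were set after seeing the data. Of the markers listed, 161 of 162 were found, and 105 of 109 genes of the other lists. Members were named by these rules: the 10 with most UMIs; in Kupffer-like barcodes the top 3 and bottom 3 members by ratio in every comparison, among those with at least 100 UMIs in the pair; the isoform families; the 5 with the highest ratio of top class to median class; and core subunits with the ATP synthase inhibitor. Ndufa6, Ndufa8, Ndufa12, Ndufa13, Ndufs4, Ndufs8, Atp5c1, Cox5a and Cox5b were named after their values were seen. Alternatives changed the barcode filter, the gate, depth, the denominator, the pseudocount and the minimum; those on Clec4f, Timd4 or Vsig4, on other cells' markers and on copies were chosen after seeing the data.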

Additional observations from a re-analysis of the deposited data

Results flagged for a closer look

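For 7 values the S/S and the A/A library pair lay on opposite sides of 0 in the TNF over baseline comparison; with 1 library per group the difference between genotypes was not tested in any of them. The nuclear share in neutrophil-like barcodes had a log2 ratio of -0.42 in S/S and 0.06 in A/A, a difference of -0.48. Over all kept barcodes it was -0.18 in S/S and 0.19 in A/A, a difference of -0.37, and the classes make up different shares of each library. The mt- share differed in sign in 4 classes: hepatocyte-like barcodes had -0.73 in S/S and 0.20 in A/A (difference -0.93), T cell-like -0.09 and 0.21 (-0.30), NK or ILC1-like -0.14 and 0.14 (-0.28), and pDC-like -0.12 and 0.12 (-0.24). Nuclear UMIs per mt- UMI in B cell-like barcodes had a log2 ratio of -0.10 in S/S and 0.48 in A/A (difference -0.57).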

How the results depend on the processing

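No paired analysis was possible because each group is 1 library, and no library could be left out for the same reason. All values here are for Kupffer-like barcodes; the order of comparisons is TNF over baseline in S/S, TNF over baseline in A/A, S/S over A/A after TNF and S/S over A/A at baseline, and the cause of each change was not tested. The log2 ratio of the nuclear share was -0.75, -0.53, 0.27 and 0.48. With a stricter gate it was -0.69, -0.58, 0.33 and 0.44; thinned to 1000 UMIs -0.53, -0.47, 0.39 and 0.45; as the mean over barcodes -0.50, -0.47, 0.35 and 0.38; without neutrophil markers -0.53, -0.44, 0.35 and 0.44; and without neutrophil or erythroid markers 0.0065 (of opposite sign), -0.42, 0.53 and 0.098. Relative to ribosomal protein UMIs it was 0.24, 0.31, -0.27 and -0.20, all of opposite sign. In the first comparison it was -0.79 at 500 genes and 10% mt-, -0.87 with Clec4f, Timd4 or Vsig4, -0.32 without hepatocyte markers, -0.15 without erythroid markers, -0.57 without mt- and rRNA genes and -0.71 without members with copies; in the second -0.45 without hepatocyte markers; in the third 0.16 with Clec4f, Timd4 or Vsig4, 0.59 without hepatocyte markers, 0.65 without erythroid markers and 0.23 without mt- and rRNA genes; in the fourth 0.54 at 500 genes and 10% mt-, 0.25 without erythroid markers, 0.28 without mt- and rRNA genes and 0.45 without members with copies. The log2 ratio of nuclear to mt- UMIs was -1.59, -2.18, 0.53 and -0.06. With a stricter gate it was -1.72, -2.24, 0.42 and -0.11; without neutrophil or erythroid markers -0.55, -2.07, 1.21 and -0.31; without neutrophil markers -0.95, -2.05, 1.09 and -0.0066. In the first comparison it was -1.53 at 500 genes and 10% mt-, -1.33 thinned, -1.84 with Clec4f, Timd4 or Vsig4, -0.029 without hepatocyte markers, -0.93 without erythroid markers and -1.31 without the deepest 10%; in the second -1.95 at 500 genes and 10% mt-, -1.44 without hepatocyte markers and -2.08 without the deepest 10%; in the third 0.73 thinned, 0.26 with Clec4f, Timd4 or Vsig4, 1.33 without hepatocyte markers, 0.97 without erythroid markers and 0.68 without the deepest 10%; in the fourth 0.12 at 500 genes and 10% mt- and -0.28 without erythroid markers. Members past 1.5-fold higher and lower were 0 and 55, 2 and 33, 11 and 1, and 33 and 0. In the first comparison the lower count was 35 thinned, 4 without neutrophil or erythroid markers, 33 without neutrophil, 25 without hepatocyte and 8 without erythroid markers, and the higher count 4, 1 and 6 without neutrophil or erythroid, hepatocyte and erythroid markers and 1 with no minimum. In the second the higher count was 0 with a pseudocount of 10 CPM or a minimum of 100 UMIs. In the third the higher count was 17 with a stricter gate, 23 thinned, 7 with Clec4f, Timd4 or Vsig4, and 22, 18, 25 and 36 without neutrophil or erythroid, neutrophil, hepatocyte and erythroid markers, and the lower count 4, 3, 2 and 6 in those sets, 0 at 500 genes, 10 CPM or 100 UMIs and 4 with no minimum. In the fourth the higher count was 13 without neutrophil or erythroid markers, 17 without erythroid markers and 15 without mt- and rRNA genes, and the lower count 12, 1 and 5 without neutrophil or erythroid, hepatocyte and erythroid markers and 4 with no minimum. The sets without other cells' markers hold as few as 11 and 21 barcodes, so counts there are sparse. The members compared and the share of all genes past the fold can differ by setting and are not given for these alternatives. These counts therefore cannot be set against the background percentages of the main comparisons, nor read as a result about the members.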

Other observations

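In T cell-like barcodes, Ndufs4, an accessory complex I subunit, and Ndufs1 were the members besides Ndufs5 with the lowest ratios in both genotypes. Ndufs4 had 301 UMIs in S/S TNF, 1108 in S/S baseline, 1027 in A/A TNF and 758 in A/A baseline, log2 CPM ratios of -0.44 and -0.36. Ndufs1 had 67, 231, 301 and 211 UMIs in the same order, log2 -0.33 and -0.28. In hepatocyte-like barcodes the mt- share was 0.817% in S/S TNF, 1.36% in S/S baseline, 0.629% in A/A TNF and 0.548% in A/A baseline, so S/S baseline lay highest. Of the marker lists of other cells, erythroid markers summed to 3647 CPM in S/S TNF, 5719.7 in S/S baseline, 176 in A/A TNF and 79.4 in A/A baseline there, with 9, 11, 6 and 5 of 11 seen. The pDC markers summed to 123, 412, 58.7 and 120.3 CPM (6, 7, 8 and 10 of 10 seen), B cell markers to 12.1, 212, 15.4 and 71.2 CPM (3, 11, 6 and 12 of 12 seen) and T cell markers to 9.38, 128, 19.6 and 63.1 CPM (4, 8, 8 and 12 of 12 seen). These 4 lists were also highest in S/S baseline, as were the NK or ILC1, monocyte, conventional dendritic cell and stellate or fibroblast lists. The remaining lists were not. Kupffer (143, 225, 89.6 and 276 CPM) and plasma cell markers were highest in A/A baseline. Neutrophil (581, 301, 763 and 65.4 CPM), mature dendritic cell, endothelial and cholangiocyte markers were highest in A/A TNF. The part of any of these lists in the mt- share was not tested.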
